A study of Mus musculus with 4 samples.

Results

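Tumor neutrophils were described in 4 single-cell RNA libraries of mouse pancreatic tumors, as the 931 of 44554 cells kept (2.09%) that carried neutrophil genes and lacked macrophage and tumor cell genes. A cell was kept with at least 200 genes detected. It was counted as a neutrophil with at least 10 unique molecular identifiers (UMIs, each standing for 1 captured transcript) of S100a8 and S100a9 together and with UMIs of at least 2 of the 7 genes Csf3r, Retnlg, G0s2, Cxcr2, Hdc, Il1r2 and Mmp9. It also had to have fewer than 3 UMIs of C1qa, C1qb and C1qc together, no Adgre1 UMI, and fewer than 4 of the 7 epithelial genes Krt7, Krt8, Krt18, Krt19, Epcam, Cldn4 and Cldn7. The cells were thus selected on the measured levels of these genes, which are no finding.

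The tumors grew from KPC cells, a mouse pancreatic cancer line, implanted in the pancreas of obese male mice that had eaten a high-fat diet for 24 weeks. Per the labels the mice were C57BL/6, with or without the transgene, and 7 months old. Pdgfrb-TK mice carry a viral thymidine kinase under the Pdgfrb promoter, so that ganciclovir (GCV) kills dividing cells in which that promoter is active. Pdgfrb-TK/GCV mice received 50 mg/kg GCV, and Pdgfrb-TK/PBS mice of the same genotype received saline. C57BL/6 mice without the transgene (C57BL/6J in the paper) received 30 mg/kg D-CAN, a peptide made to kill adipose stromal cells and the fibroblasts derived from them, or saline (WT/PBS). Injections were given every other day for 25 days. Cell suspensions were pooled by treatment and each condition is 1 library, so no difference between conditions could be tested. All intervals below are exact 95% intervals that cover counting error only, not the difference between mice or tumors. The comparison of WT/PBS with Pdgfrb-TK/PBS shows how far 2 libraries given saline lay apart.

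Neutrophils are short-lived granulocytes that are made in the bone marrow under the growth factor receptor Csf3r and are drawn into tissue through the chemokine receptor Cxcr2. They fill their granules in order as they mature: primary granules with Mpo, Elane and Prtn3, then secondary granules with Ltf, Camp and Ngp, and then gelatinase granules with Mmp9. In tumors, mature neutrophils can take up an activated state marked by chemokines such as Ccl3 and Cxcl2 and cytokines such as Il1b, and they are known both to harm tumor cells and to hold back T cells.

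The libraries held 125 neutrophils of 12280 cells kept in Pdgfrb-TK/GCV, 177 of 10469 in Pdgfrb-TK/PBS, 364 of 10178 in D-CAN and 265 of 11627 in WT/PBS. Values below are given in this order of libraries unless stated. Neutrophils had little RNA, with a median of 1860, 1216, 2304.5 and 2048 UMIs per cell, against 6950, 5203, 4514.5 and 7421 over all cells kept. A few deep cells weighed heavily. The 7 deepest neutrophils of Pdgfrb-TK/GCV held 39.2% of its 371501 neutrophil UMIs, and its deepest cell alone held 14.4%. The deepest 9 held 24% of 290664 UMIs in Pdgfrb-TK/PBS, the deepest 19 held 34.6% of 1356544 in D-CAN and the deepest 14 held 26.3% of 1011573 in WT/PBS. Levels are therefore given both as CPM (the UMIs of a gene scaled to a fixed total of neutrophil UMIs in each library) and as the share of neutrophils with a UMI after each cell was thinned to 1000 UMIs, in which every cell counts the same. Thinning kept 120, 134, 350 and 259 neutrophils and left out 68 shallower ones. For a gene seen in no thinned neutrophil, a floor of 3 cells allows a share with a UMI of up to 2.50%, 2.24%, 0.857% and 1.16%, which does not limit the share of cells that express it.

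The rule met the libraries unevenly. The median number of the 7 further genes per neutrophil was 4.0, 3.0, 5.0 and 3.0, so D-CAN cells passed with the most genes to spare. Mmp9, a protease of the gelatinase granules, was seen without thinning in 26.4%, 19.2%, 64.0% and 25.3% of neutrophils. The demand for 2 further genes removed 90 cells in WT/PBS and 24 in each other library, and the Adgre1 condition removed 13, 11, 85 and 43 cells. At the threshold, 20, 28, 32 and 22 neutrophils had 10 to 14 S100a8 and S100a9 UMIs, and 28, 46, 33 and 19 cells that met every other condition had 5 to 9. Pairs of libraries shared 26 to 42 cell barcodes, and no shared barcode was a neutrophil in both.

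Genes outside the rule went with the label. Ranked by the lowest of the 4 folds over all other cells of a library, the first were Ngp at 263-fold, Camp at 192-fold, Stfa2l1 at 121-fold, Cstdc4 at 96.2-fold and Il1f9 at 72.0-fold. Ngp and Camp are granule proteins, Stfa2l1 and Cstdc4 belong to the cystatin family of protease inhibitors, and Il1f9 is a cytokine of the interleukin 1 family. Among the 20 first genes also stood Hcar2, a receptor for ketone bodies, Acod1, which makes itaconate, the lectin receptors Clec4d and Clec4e, the platelet-activating factor receptor Ptafr and the activating receptor Trem1. Clec4d was seen in 55.0%, 44.8%, 43.7% and 53.3% of thinned neutrophils, and in at most 0.438% of thinned epithelial-marker cells (cells with 4 or more of the 7 epithelial genes). Macrophage-marker cells (10 or more UMIs of C1qa, C1qb and C1qc together) carried it too, at 66.1, 55.8, 75.1 and 246 CPM. In neutrophils it stood at 668, 561, 600 and 864 CPM, so it was not confined to them. Tyrobp, an adaptor that many myeloid cells share, was seen in 65.8%, 66.4%, 78.3% and 69.1%. Ly6g, the antigen commonly used to sort mouse neutrophils, was seen in only 2.50%, 2.24%, 2.57% and 2.32%, at or near what could be seen in the Pdgfrb-TK libraries.

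RNA of other cells was also in these cells. The rule limited the 7 epithelial genes, which are among the tumor cell markers, and C1qa, C1qb, C1qc and Adgre1, which are among the macrophage markers. The sums of these marker lists are thus in part set by the rule. The 12 KPC tumor cell markers summed to 2175, 3736, 1712 and 1532 CPM, or 33.7%, 25.7%, 30.9% and 18% of their level in all other cells, with Tff1 the most abundant in Pdgfrb-TK/PBS and Krt18 in the other 3, and with 2, 3, 2 and 1 of the markers at 0. Clu, an abundant transcript of these tumor cells, was seen in 87.5%, 84.3%, 42.9% and 56.4% of thinned neutrophils, so this transcript was more widespread in the Pdgfrb-TK libraries. With every neutrophil thinned, so that deep cells weigh no more than others, the 12 markers summed to 1992, 3963, 706 and 1463 CPM. The 7 cancer-associated fibroblast (CAF) markers summed to 579, 155, 1429 and 3326 CPM, led by Col3a1 in Pdgfrb-TK/PBS and by Col1a1 in the other 3, with 3, 3, 0 and 0 markers at 0. These sums were 140%, 20.6%, 50.4% and 110% of the level of the markers in all other cells, and they rested in part on deep cells: with every neutrophil thinned they were 150, 187, 431 and 1467 CPM. The 12 macrophage markers, led by Apoe, summed to 630, 323, 243 and 189 CPM, and the 7 monocyte markers, led by Fn1, to 1273, 427, 570 and 699 CPM. T cell, B cell, NK cell and dendritic cell markers each summed to at most 52.3 CPM. Endothelial markers, led by Pecam1, summed to 16.2, 162, 13.3 and 102 CPM, and those of erythroid cells to 110 CPM in Pdgfrb-TK/PBS and at most 0.989 elsewhere. Markers of acinar cells, eosinophils, mast cells and basophils, and platelets summed to at most 55.3 CPM. The part of such RNA in the comparisons below was not tested, and the share of epithelial-marker cells with a UMI is given where it matters.

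The share of neutrophils was lower with GCV. Pdgfrb-TK/PBS had 1.69% neutrophils among cells kept (1.45 to 1.96), and Pdgfrb-TK/GCV had 1.02% (0.848 to 1.21), which is 0.602-fold (0.475 to 0.761). WT/PBS had 2.28% (2.02 to 2.57), and D-CAN had 3.58% (3.22 to 3.96), which is 1.57-fold (1.34 to 1.85). The share in WT/PBS was itself 1.35-fold (1.11 to 1.64) that in Pdgfrb-TK/PBS. Neither treated library thus lay much further from its own saline library than the saline libraries lay from each other.

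The denominator mattered for D-CAN. Of cells with a UMI of Ptprc (CD45, the pan-leukocyte antigen), neutrophils with such a UMI were 12.9% (11.4 to 14.7) in WT/PBS and 11.4% (10.3 to 12.7) in D-CAN, which is 0.883-fold (0.739 to 1.06), an interval that spans 1. The same share was 8.02% (6.43 to 9.85) in Pdgfrb-TK/PBS and 2.50% (1.96 to 3.13) in Pdgfrb-TK/GCV, which is 0.311-fold (0.224 to 0.433). Cells with a Ptprc UMI were 23.5%, 9.77%, 26.7% and 14% of cells kept. Leaving out epithelial-marker cells, neutrophils were 4.15% (3.74 to 4.58) in D-CAN, above the 2.85% (2.52 to 3.21) of WT/PBS. With GCV, then, neutrophils were a smaller part both of all cells and of cells with a Ptprc UMI, and with D-CAN a larger part of all cells and of cells that were not epithelial-marker cells. Cell quality also differed: 4.48%, 8.42%, 29.3% and 18.2% of cells kept had more than 20% mitochondrial UMIs, against 17 of all neutrophils. A share in a dissociated suspension moves with how many other cells were recovered, and fewer neutrophils in the tumor cannot be told apart from more of the other cells.

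**Figure D1:**
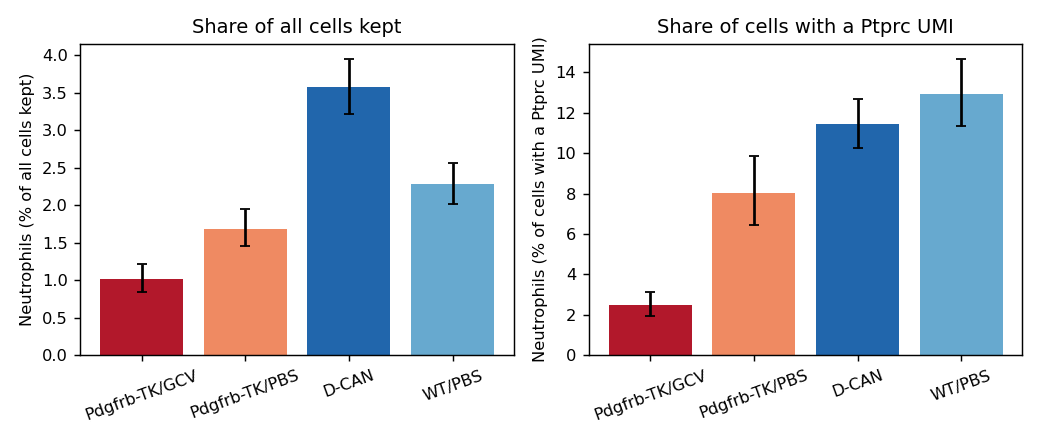
Share of neutrophils in each library (1 library per condition), as a percentage of all cells kept (left) and of cells with a Ptprc UMI (right). Error bars are exact 95% binomial intervals for counting error. Pdgfrb-TK/GCV is lowest in both panels, at 1.02% and 2.50%, while D-CAN is above WT/PBS on the left and the intervals of D-CAN and WT/PBS overlap on the right.

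The neutrophils differed plainly among themselves in their secondary granule genes. Most had no UMI of Camp, Ngp or Ltf (112, 150, 306 and 166 cells), 9, 19, 36 and 35 had 1 to 9, and the rest had 10 or more, a threshold chosen after the values were seen. These granule-gene cells were 4 of 125 neutrophils in Pdgfrb-TK/GCV (3.2%, 0.879 to 7.99), 8 of 177 in Pdgfrb-TK/PBS (4.52%, 1.97 to 8.71), 22 of 364 in D-CAN (6.04%, 3.83 to 9.01) and 64 of 265 in WT/PBS (24.2%, 19.1 to 29.8). WT/PBS stood apart from the other 3. Its share was 5.34-fold (2.55 to 12.9) that of Pdgfrb-TK/PBS, and the share in D-CAN was 0.25-fold (0.147 to 0.412) that of WT/PBS. In Pdgfrb-TK/GCV the fold over Pdgfrb-TK/PBS was 0.708 (0.156 to 2.64), an interval that spans 1. The same threshold was passed by 3, 6, 9 and 17 cells outside the rule, of which 9 in WT/PBS lacked 2 of the 7 further genes, so the rule left out some such cells in every library.

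**Figure D2:**
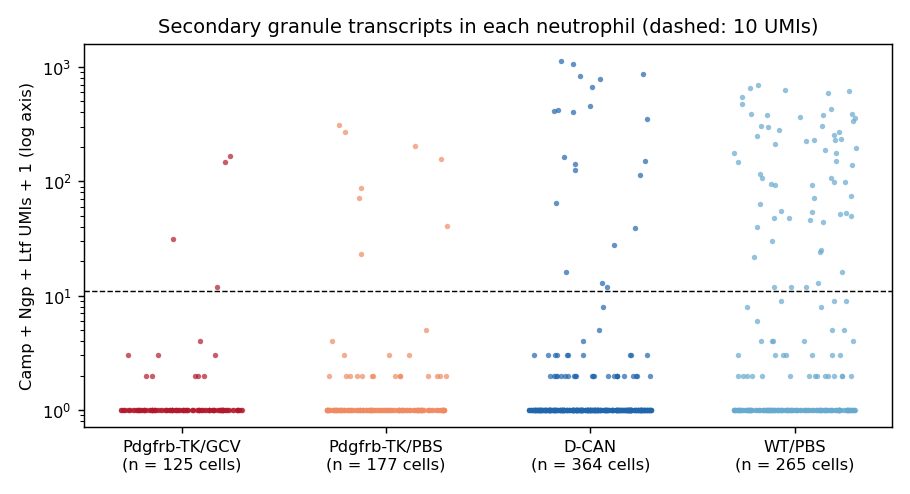
UMIs of Camp, Ngp and Ltf in each neutrophil, plus 1, on a log axis, by library. Each point is 1 cell and the spread across a column carries no value. Above the dashed line at 10 UMIs lie 64 of 265 cells in WT/PBS and 4, 8 and 22 cells in Pdgfrb-TK/GCV, Pdgfrb-TK/PBS and D-CAN.

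The granule-gene cells of WT/PBS had a median of 4613 UMIs, against 1775.5 in its cells with none, and held 42.6% of its neutrophil UMIs, against 3.57%, 8.52% and 12.0% in the first 3 libraries. Beyond the genes that chose them they carried Lcn2 (lipocalin 2, which binds iron carriers of bacteria) at 6139 CPM against 1200 in the other neutrophils of WT/PBS, and Chil3, a chitinase-like protein, at 3381 against 766. Mki67, a gene of dividing cells, was seen without thinning in 21 of 64 (32.8%) and in 9 of the 201 others (4.48%), at 183 against 43.1 CPM. Most genes of the activated state that were looked at were low in them: Cxcl2 stood at 508 against 10429 CPM, Il1b at 39.5 against 1097, Ccl3 at 90.5 against 3792 and Nlrp3, an inflammasome sensor, at 4.64 against 238. Osm (oncostatin M, a cytokine) was not lower, at 39.5 against 27.6 CPM in WT/PBS and 123 against 116 in D-CAN. In D-CAN, Il1b stood at 333 against 3358 CPM and Lcn2 at 9985 against 388, the same direction, over 22 cells. Ly6g was seen without thinning in 68.2% of the granule-gene cells of D-CAN and 2.92% of its other neutrophils, but in 14.1% and 3.48% in WT/PBS.

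The primary granule genes Elane and Mpo were nearly confined to WT/PBS. Elane (neutrophil elastase) stood at 332 CPM there, at 5.16 in D-CAN and at 0 in both Pdgfrb-TK libraries, and Mpo (myeloperoxidase) stood at 169 CPM there and at 0 in the other 3. In WT/PBS, 11 neutrophils had 5 or more UMIs of Elane, Mpo, Prtn3 and Ctsg together, of which 9 were granule-gene cells, and 1 cell held 217 of the 1071 UMIs. Prtn3 (proteinase 3) stood at 13.5, 10.3, 35.4 and 483 CPM, but by cells it was not confined to WT/PBS, being seen in 2.50%, 1.49%, 3.14% and 4.25% of thinned neutrophils. Few cells thus carry the levels of WT/PBS, and as shares of thinned neutrophils Elane was seen in 2.70% in WT/PBS and 0.286% in D-CAN.

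Between libraries, gene levels were compared for genes with at least 100 UMIs in the neutrophils of both libraries together, as log2 ratios of CPM plus 1, and a gene was counted as changed at 2-fold. A gene can meet this minimum through 1 library alone and then has to differ, as Gbp2 did (9 UMIs in WT/PBS and 296 in D-CAN). In Pdgfrb-TK/GCV against Pdgfrb-TK/PBS, 45 of 997 genes were higher (4.51%) and 28 lower (2.81%), together 7.32%. In D-CAN against WT/PBS, 478 of 3901 were higher (12.3%) and 202 lower (5.18%), together 17.4%. In WT/PBS against Pdgfrb-TK/PBS, 253 of 2161 were higher (11.7%) and 157 lower (7.27%), together 19.0%. Fibroblast genes such as Tagln, Col12a1 and Col1a2 stood among its 10 highest ratios. All 4 CAF markers compared there were higher (median 4.36), and 3 of 4 were lower with D-CAN. The median log2 ratio over all genes compared was 0.09, 0.11 and 0.17, and list medians below are read against it. Scaling by the median ratio moved the split to 34 higher and 41 lower with GCV, 376 and 273 with D-CAN and 194 and 206 for the saline libraries. The D-CAN and the saline comparison share the WT/PBS library.

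In the list of 7 secondary granule genes, 3 of 5 members compared were 2-fold or more lower with GCV, where 2.81% of all genes were lower, and the list median was -1.91. They were Camp (345 and 1503 CPM), Ngp (487 and 1975) and Ltf (159 and 599). These values rest on few granule-gene cells, 4 and 8. With each neutrophil thinned before summing the median was -0.85, with 2 of 4 lower, where 13 of 370 genes over all were lower. As shares of thinned cells, Camp was seen in 2.50% (0.519 to 7.13) with GCV and 5.97% (2.61 to 11.4) without, and these intervals overlap. With D-CAN, 3 of 7 were lower, namely Ngp, Lcn2 and Chil3, against 5.18% of all genes, and the list median was -0.88. Lcn2 was seen in 62.5% (56.3 to 68.5) of thinned neutrophils in WT/PBS and 30% (25.2 to 35.1) in D-CAN, and Chil3 in 37.5% (31.5 to 43.7) and 7.14% (4.68 to 10.4), so both lay apart by more than counting error. Against Pdgfrb-TK/PBS in place of WT/PBS the list median with D-CAN was 0.37, with 1 of 6 lower, where 81 of 2906 genes over all were lower. Its direction thus depended on the saline library. Of a further list of 9 granule and secretory vesicle genes, which holds the collagenase Mmp8 and the formyl peptide receptors Fpr1 and Fpr2, 2 were compared with GCV, 8 with D-CAN and 6 between the saline libraries, and none of these passed 2-fold.

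Inflammatory genes put the libraries in another order. Il1b, the precursor of interleukin 1 beta, stood at 3922, 7184, 2996 and 647 CPM, and was seen in 74.2% (65.4 to 81.7), 85.8% (78.7 to 91.2), 76.6% (71.8 to 80.9) and 45.6% (39.4 to 51.8) of thinned neutrophils and at most 1.95% of epithelial-marker cells. WT/PBS was lowest on both scales. Ptgs2, which encodes cyclooxygenase 2, stood at 778, 1734, 519 and 155 CPM and was seen in 40.8%, 60.4%, 35.4% and 11.2%. Cxcl2, a ligand of Cxcr2, stood at 15618, 26212, 6329 and 6203 CPM and was seen in 90%, 88.8%, 61.4% and 62.9%, with both Pdgfrb-TK libraries above both wild-type ones. The same split between models was seen for Ccrl2, an atypical receptor for chemerin, in 52.5%, 72.4%, 26.3% and 31.7% of thinned neutrophils, and for Cd14, the lipopolysaccharide co-receptor, in 61.7%, 66.4%, 30.6% and 30.5%. Il23a, a subunit of interleukin 23, was seen in 16.7% and 8.96% in the Pdgfrb-TK libraries and in 0.857% and 0.772% in D-CAN and WT/PBS, at or under what could be seen there.

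**Figure D3:**
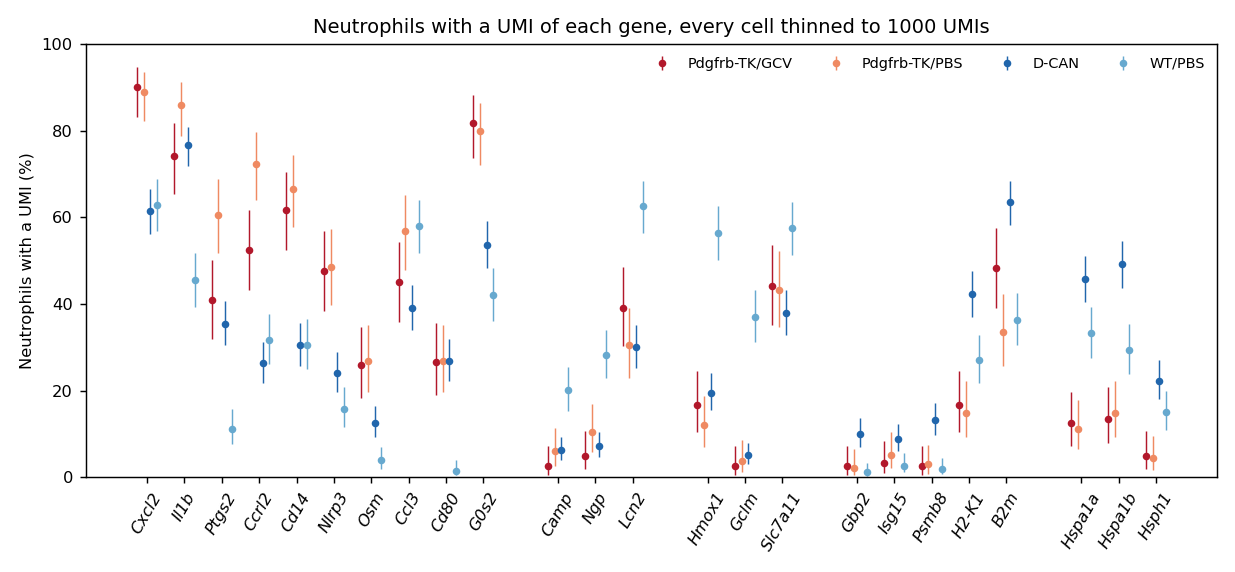
Share of neutrophils with a UMI of each gene after thinning to 1000 UMIs (vertical axis, percent) in the 4 libraries, with exact 95% binomial intervals for counting error. Il1b runs from 45.6% in WT/PBS to 85.8% in Pdgfrb-TK/PBS, while Hmox1 and Gclm are highest in WT/PBS at 56.4% and 37.1%.

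The saline libraries were far apart in these genes. Over all genes 7.27% were lower and 11.7% higher in WT/PBS. Of the 14 inflammatory cytokine and response genes 10 were compared, and 9 were 2-fold or more lower in WT/PBS than in Pdgfrb-TK/PBS, with a list median of -2.29; Il1rn, the natural antagonist of the interleukin 1 receptor, was the exception at a log2 ratio of -0.63. Il1b was 0.0900-fold (0.0823 to 0.0983) and Ptgs2 0.0895-fold (0.0743 to 0.107). Of the 17 genes of the tumor neutrophil state, 10 of 14 compared were lower and none higher, with a median of -2.12, and Ccl3 stood at 2171 and 2215 CPM. Without the granule-gene cells these medians were -1.73 and -1.57. Of the 20 survival and death genes, 4 of 10 were lower, among them Mcl1, which keeps neutrophils alive (1645 and 558 CPM), and 1 was higher, the death receptor Fas (61.9 and 168 CPM), near the share of all genes.

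With GCV, few inflammatory genes were 2-fold or more lower than in Pdgfrb-TK/PBS. Of 11 inflammatory cytokine and response genes compared, 2 were 2-fold or more lower (Ptgs2 and Tnf) and none higher, where 2.81% of all genes were lower, with a list median of -0.34. With each neutrophil thinned before summing, 1 of 10 was lower and the median was -0.11, where 13 of 370 genes over all were lower. Of 13 tumor neutrophil genes, 4 were lower (Ccl4, Ptgs2, Vegfa and Ccrl2), with a median of -0.83. In the thinned sums 2 of 11 were lower and the median was -0.57. Against WT/PBS in place of Pdgfrb-TK/PBS the median of the inflammatory list was 2.02, with 8 of 10 higher. That of the tumor neutrophil list was 1.21, with 8 of 14 higher, where 156 of 2266 genes over all were higher. Here too the direction depended on the saline library. Il1b was 0.546-fold (0.510 to 0.584), and Cxcl2, at 0.596-fold (0.576 to 0.617), was seen in as large a share of cells. Genes with lower shares, by intervals that do not overlap, included Mpp7, a scaffold protein of cell junctions, in 24.2% (16.8 to 32.8) against 57.5% (48.6 to 66.0) of thinned neutrophils, Socs3, an inhibitor of cytokine receptor signalling, in 15.8% (9.81 to 23.6) against 37.3% (29.1 to 46.1), and Gadd45b, a stress response gene, in 45.0% (35.9 to 54.3) against 64.2% (55.4 to 72.3). Mpp7 was also seen in 4.90% and 4.83% of epithelial-marker cells, and against WT/PBS its log2 ratio with GCV was 1.76. Tex14 had the lowest ratio, at 51.1 against 317 CPM.

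Single deep cells carried most of the highest ratios with GCV. Of the 10 genes named for the highest ratios, 6 had at least 50% of their UMIs in 1 cell, among them Timp1, an inhibitor of metalloproteases, with 97.2% and the small heat shock protein Cryab with 98.8%. Timp1 stood at 2837 against 20.6 CPM, yet was seen in 5.83% and 4.48% of thinned neutrophils. Fndc3a was spread over more cells, at 584 against 244 CPM and in 40.0% (31.2 to 49.3) against 20.9% (14.4 to 28.8). Among list members that did not pass 2-fold, the chemokine Ccl6 was seen in 67.5% (58.3 to 75.8) against 44.0% (35.5 to 52.9), and Wfdc17, a secreted protease inhibitor family member, in 57.5% (48.1 to 66.5) against 37.3% (29.1 to 46.1). Both are also abundant in macrophages, where Ccl6 was seen in 63.3% and 60% of thinned C1q-high cells. Macrophage-marker cells were 1068 in Pdgfrb-TK/GCV and 246 in Pdgfrb-TK/PBS, and the part of their RNA in these values was not tested. The lists of hypoxia and glycolysis, NADPH oxidase, pattern recognition and heat shock genes had at most 1 member past 2-fold.

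With D-CAN, most of the interferon response genes compared were higher than in WT/PBS. Interferons are cytokines that raise a shared set of defence genes in the cells they reach. Of the 28 genes of the list 11 were compared, and 7 were 2-fold or more higher and none lower, where 12.3% of all genes were higher, with a list median of 1.97. Gbp2, a guanylate-binding protein, stood at 16.2, 13.8, 218 and 8.90 CPM and was seen in 2.50%, 2.24%, 10.0% and 1.16% of thinned neutrophils. For Gbp2, D-CAN was above the other 3 libraries, but the gene met the minimum through D-CAN, and 30.4% of its UMIs lay in 1 cell. Isg15 and Oasl2 also met it through D-CAN, with 18 and 17 UMIs in WT/PBS. Between the saline libraries only 3 members of the list had enough UMIs to be compared. Most of the 11 thus met the minimum only with the UMIs of D-CAN, and the count of higher members is in part set by it. Isg15, a ubiquitin-like modifier, stood at 29.6, 51.6, 112 and 17.8 CPM. Oasl2, a member of the family of antiviral oligoadenylate synthetases, stood at 64.6, 158, 114 and 16.8 CPM, so here WT/PBS was low and D-CAN lay below Pdgfrb-TK/PBS in CPM. Other higher members were Cxcl10, a chemokine that attracts T cells, Slfn1, and Bst2, which tethers viruses to the cell. Iigp1, outside the list, had the highest ratio of all, but 79.5% of its UMIs lay in 1 cell.

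The share of cells with these transcripts was small and the genes were higher in other cells too. Gbp2 was seen in 5.16% of epithelial-marker cells of D-CAN and 0.391% of WT/PBS, and Isg15 in 2.79% and 0.608%. The log2 ratio was 4.47 in neutrophils and 3.17 in all other cells for Gbp2, and 2.59 and 1.14 for Isg15. With each neutrophil thinned before summing, only 3 members had enough UMIs to be compared, of which 1 was past 2-fold, and their median was 0.83. Over all genes 171 of 1036 were higher in such sums. Against Pdgfrb-TK/PBS in place of WT/PBS the median was 0.72 over 10 members, of which 4 were higher and 1 lower. Over all genes 421 of 2906 were higher there and 81 lower.

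Interferon-stimulated genes often carry in their promoters the interferon-stimulated response element, written here as GAAANNGAAA on either strand (TTTCNNTTTC on the other). It was searched in the 250 bases before the RefSeq start of each gene (GRCm38.p6), and 936 of 27025 genes held it (3.46%). A window was at hand for 25 of the 28 list members, of which 14 held it (56.0%), and for 6 of the 7 members that were higher with D-CAN, of which 4 held it (66.7%): Isg15, Gbp2, Cxcl10 and Bst2. The windows of 3 of them are shown, 5′ to 3′ on the strand of the gene, because these genes were higher in D-CAN neutrophils and differ in how many matches they hold. Capitals mark the matches, which overlap in Isg15 and Bst2. A match is a description of the letters and not a binding site.
Gbp2: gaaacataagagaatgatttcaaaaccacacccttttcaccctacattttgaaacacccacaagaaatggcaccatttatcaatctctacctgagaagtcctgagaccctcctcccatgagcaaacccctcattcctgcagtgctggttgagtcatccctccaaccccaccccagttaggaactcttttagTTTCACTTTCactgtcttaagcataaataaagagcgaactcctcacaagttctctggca
Isg15: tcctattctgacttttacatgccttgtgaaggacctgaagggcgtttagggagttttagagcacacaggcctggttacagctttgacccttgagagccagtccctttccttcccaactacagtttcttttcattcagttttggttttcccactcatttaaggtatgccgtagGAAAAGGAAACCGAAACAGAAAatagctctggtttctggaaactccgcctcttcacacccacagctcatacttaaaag
Bst2: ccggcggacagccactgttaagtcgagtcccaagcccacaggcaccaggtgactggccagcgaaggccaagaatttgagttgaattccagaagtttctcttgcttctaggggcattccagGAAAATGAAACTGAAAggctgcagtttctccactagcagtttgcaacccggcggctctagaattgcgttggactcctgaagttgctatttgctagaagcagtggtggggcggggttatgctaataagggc

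The Gbp2 window lies at chr3:142620413-142620662 on the plus strand, with 1 match from 59 to 50 bases before the start. The Isg15 window lies at chr4:156200819-156201068 on the minus strand, with 3 matches between 78 and 57 bases before the start. The Bst2 window lies at chr8:71537473-71537722 on the minus strand, with 2 matches between 130 and 115 bases before the start. A second motif of interferon genes, TTCNNNGAA, was held by 8.13% of all genes and by 4 of the 25 list members (16.0%).

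Genes of antigen presentation on MHC class I, many of which interferons raise, were also mostly higher with D-CAN. Of 9 genes 7 were compared and 5 were 2-fold or more higher, against 12.3% of all genes, with a median of 1.31. Only 3 genes of the list had enough UMIs to be compared between the saline libraries. Most of the 7 thus met the minimum only with the UMIs of D-CAN, and the count of higher genes is in part set by it. With each neutrophil thinned before summing only 3 could be compared, of which 1 was higher, and their median was 0.74, where 171 of 1036 genes over all were higher. B2m, the light chain of MHC class I, stood at 479, 447, 1269 and 513 CPM and was seen in 48.3%, 33.6%, 63.4% and 36.3% of thinned neutrophils. H2-K1, a heavy chain, stood at 202, 134, 572 and 236 CPM. The immunoproteasome subunits Psmb8 and Psmb9 and the peptide transporter Tap1 were the other 3, with Psmb8 seen in 2.50%, 2.99%, 13.1% and 1.93%. D-CAN was the highest library for each gene. B2m was seen in 53.4% of epithelial-marker cells of D-CAN and 13.4% of WT/PBS, and in all other cells the log2 ratio was 1.91 for B2m and 2.38 for H2-K1, against 1.31 and 1.27 in neutrophils. Other cells thus showed the difference too. H2-D1, a second heavy chain, did not pass 2-fold (857 and 615 CPM).

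Some heat shock genes were higher in neutrophils with D-CAN and lower in the other cells. Of the 10 genes of the list 4 were 2-fold or more higher with D-CAN and 1 lower, against 12.3% and 5.18% of all genes, with a median of -0.03. Against Pdgfrb-TK/PBS the median was 1.45 and 6 of 9 were higher, where 421 of 2906 genes over all were higher. Hspa1b, an inducible HSP70 chaperone, stood at 210, 382, 2735 and 669 CPM and was seen in 13.3%, 14.9%, 49.1% and 29.3% of thinned neutrophils. Hspa1a stood at 218, 265, 2969 and 1324 CPM. Of their co-chaperones, Hsph1 stood at 53.8, 58.5, 852 and 334 CPM and Dnajb1 at 70.0, 96.3, 470 and 175. Bag3, outside the list, stood at 559 and 88.0 CPM. In all other cells the log2 ratio with D-CAN was below 0 for each of these 5 genes, between -1.52 for Hspa1a and -0.71 for Bag3, whereas in neutrophils it lay between 1.16 and 2.65. The other cells of WT/PBS were themselves high: Hspa1a stood at 125, 21.9, 287 and 822 CPM in all other cells, so that D-CAN was below WT/PBS there but above Pdgfrb-TK/PBS. Hspb1, a small heat shock protein, was lower with D-CAN, at 36.1 and 758 CPM. Hspa1a and Hspa1b are near-identical copies whose reads may be shared between them.

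**Figure D4:**
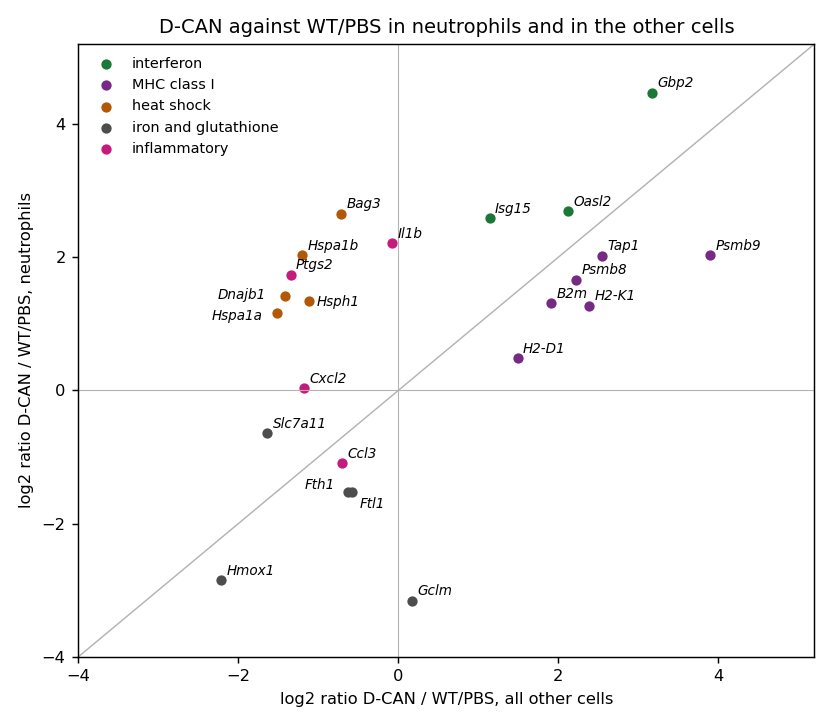
Log2 ratio of D-CAN over WT/PBS in neutrophils (vertical axis) and in all other cells of the same libraries (horizontal axis) for named genes, from CPM plus 1. Interferon and MHC class I genes lie above 0 on both axes, while Hspa1a (1.16 and -1.52) and Hspa1b (2.03 and -1.20) lie above 0 in neutrophils and below 0 in other cells.

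Some inflammatory genes were higher in D-CAN than in WT/PBS, the lowest library. Of 10 compared, 5 were 2-fold or more higher (Il1a, Il1b, Osm, Ptgs2 and Nlrp3), against 12.3% of all genes, with a median of 0.92. With each neutrophil thinned before summing, 3 of 9 were higher, where 171 of 1036 genes over all were higher. Il1a and Osm met the minimum through D-CAN, with 49 and 33 UMIs in WT/PBS. Il1b was 4.63-fold (4.27 to 5.04) higher, and Cxcl2 stood at 1.02-fold (0.988 to 1.05). Ccl3 was lower (1038 and 2215 CPM). Outside the granule-gene cells, Il1b stood at 1097 CPM in WT/PBS and 3358 in D-CAN. The list median was 0.49, with 4 of 10 higher, where 428 of 3146 genes over all were higher. Cxcl2 there stood at 10429 CPM in WT/PBS and 6989 in D-CAN, so that it was lower in D-CAN once the granule-gene cells were set aside. Against Pdgfrb-TK/PBS the list median was -1.30, so that the direction depended on which saline library was used. Cd80, a costimulatory ligand for T cells, set WT/PBS apart from the other 3: it was seen in 26.7%, 26.9%, 26.9% and 1.54% of thinned neutrophils. Itga4, an integrin chain, was seen in 1.67%, 2.99%, 11.4% and 0.772%, and Alox5, which makes leukotrienes, in 5.83%, 4.48%, 12.6% and 1.93%, both highest in D-CAN. The lowest ratios with D-CAN were those of Mpo and Elane, described above. Of 5 proliferation genes compared, 4 were lower with D-CAN, against 5.18% of all genes, among them Mki67 and Top2a. Outside the granule-gene cells Mki67 stood at 43.1 CPM in WT/PBS and 13.4 in D-CAN. Top2a stood at 22.4 and 15.1 there, under 2-fold.

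Hmox1, Gclm and the ferritin chains were highest in WT/PBS. In the list of 16 lipid and ferroptosis genes, which holds Hmox1, Fth1, Ftl1 and Slc7a11, 4 of 11 compared were 2-fold or more higher and 1 lower in WT/PBS than in Pdgfrb-TK/PBS, against 11.7% and 7.27% of all genes, and Gclm, outside the lists, was chosen after its values were seen. Hmox1, which breaks down heme, stood at 159, 162, 243 and 1757 CPM and was seen in 16.7%, 11.9%, 19.4% and 56.4% of thinned neutrophils. Gclm, a subunit of the enzyme that starts glutathione synthesis, stood at 51.1, 41.3, 61.9 and 562 CPM and was seen in 2.50%, 3.73%, 5.14% and 37.1%. The other 3 libraries lay together for both genes. Epithelial-marker cells had Gclm in 11.7%, 13.1%, 13.1% and 11.8%, so for this gene they did not set WT/PBS apart. The ferritin chains Fth1 and Ftl1, which store iron, stood at 28795 and 8785 CPM in WT/PBS and at no more than 17350 and 3065 elsewhere. Slc7a11, the cystine transporter, was seen in 44.2%, 43.3%, 38.0% and 57.5%. Against WT/PBS the log2 ratios with D-CAN were -2.85 for Hmox1 and -3.16 for Gclm in neutrophils, and -2.22 and 0.17 in all other cells. Both genes were seen in granule-gene cells and in the others of WT/PBS, Gclm at 469 and 630 CPM and Hmox1 at 1230 and 2147.

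Of the remaining lists, hypoxia and glycolysis had 6 of 26 genes higher with D-CAN (median 0.71) and 7 of 24 lower in WT/PBS than in Pdgfrb-TK/PBS (median -0.52). The list of Csf3r signalling and transcription factors had 6 of 23 higher with D-CAN, among them Jun at 2457 and 881 CPM (median 0.62), and 8 of 22 lower in WT/PBS. Over all genes 12.3% were higher with D-CAN and 7.27% lower in WT/PBS. Against Pdgfrb-TK/PBS the D-CAN medians of these lists were 0.18 and -0.09, each with 2 members higher and 2 lower, so they depended on the saline library. Over all genes 421 of 2906 were higher in that comparison and 81 lower. In sums of thinned cells the hypoxia list had 2 of 21 higher and 1 lower with D-CAN (median 0.35), and without granule-gene cells 3 of 26 higher, both at or under the share of all genes. The Csf3r list had 7 of 20 higher in sums of thinned cells (median 0.61), where 171 of 1036 genes over all were higher. Without granule-gene cells it had 3 of 23 higher (median 0.35), where 428 of 3146 genes over all were higher. NADPH oxidase genes, which make the oxidative burst, had no member past 2-fold in either treated comparison. Among immune suppression genes, Cd274 (PD-L1), the ligand of an inhibitory receptor of T cells, was seen in 33.3%, 35.1%, 28.9% and 28.6% of thinned neutrophils, with no library apart.

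Members of the last lists are read against the 12.3% of all genes that were higher and the 5.18% that were lower with D-CAN, and the 4.51% and 2.81% with GCV. Of 11 genes of circulating neutrophils compared with D-CAN, Itga4 was past 2-fold, and none of 6 was with GCV. Of 5 chemokine genes compared with GCV, Ccl4 was lower, and of 8 compared with D-CAN, Ccl4 and Cxcl10 were higher and Ccl2, Ccl3 and Cxcl1 lower. Among chemokine receptors, Ccrl2 was lower with GCV and Cx3cr1, the receptor of fractalkine, was higher with D-CAN (71.5 and 7.91 CPM), having met the minimum through D-CAN, with 97 UMIs there and 8 in WT/PBS. Of 13 lipid and ferroptosis genes compared with D-CAN, 2 were higher (Alox5 and Fabp5) and 4 lower (Hmox1, Fth1, Ftl1 and Lta4h). Against Pdgfrb-TK/PBS this list had 1 of 12 higher and none lower (median 0.37). The chemokine list had 3 of 6 lower and none higher there (median -1.03), so both depended on the saline library. Over all genes 421 of 2906 were higher in that comparison and 81 lower. Of 16 pattern recognition and Fc receptor genes, Tlr2 and Pilra were higher with D-CAN, a share near that of all genes. Matrix protease and angiogenesis genes had Timp1 higher and Thbs1 and Vegfa lower with GCV. Of the MHC class II list only Cd74, the invariant chain, had enough UMIs to be compared, and it was higher with D-CAN at a log2 ratio of 1.77. The list, led by Cd74, summed to 258, 200, 156 and 62.3 CPM, so WT/PBS was low and D-CAN lay below both Pdgfrb-TK libraries. In all other cells it summed to 702, 324, 1485 and 509 CPM, so D-CAN was above WT/PBS there too.

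Within a library, the spread of a gene between neutrophils was ranked. By the Fano factor (the variance of a gene's thinned counts over their mean), the first genes over the 4 libraries were S100a9 and S100a8, which the rule used, the mitochondrial gene mt-Co1, Cxcl2, Camp and Ngp. Of the 15 first, 5 were mitochondrial genes, and Ccl3 and Ccl4 also stood among them. Cxcl2 had Fano factors of 23.3, 25.3, 27.9 and 27.0, against medians of 1.21, 1.19, 1.42 and 1.26 over all genes ranked. Cells with 2 or more Ccl3 and Ccl4 UMIs after thinning were 42 of 120 (35.0%, 26.5 to 44.2), 66 of 134 (49.3%, 40.5 to 58.0), 104 of 350 (29.7%, 25 to 34.8) and 121 of 259 (46.7%, 40.5 to 53.0). Each saline library was above the treated library of its model, with overlapping intervals in the Pdgfrb-TK pair.

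Cells with these chemokines carried some other genes of the activated state too. Against cells with no Ccl3 or Ccl4 UMI in the same library, Cxcl2 was 2.19-, 2.06-, 3.67- and 10.2-fold higher. Nlrp3 was 3.15-, 2.18-, 3.06- and 11.8-fold higher, and Ccrl2 1.94-, 1.75-, 4.95- and 6.45-fold. Slc7a11 was 1.68-, 2.30-, 4.4- and 4.51-fold higher, with every interval above 1. Il1b differed less, at 1.02 (0.872 to 1.20), 1.41 (1.25 to 1.61), 1.18 (1.06 to 1.32) and 3.73 (2.73 to 5.18), so it was carried by cells with and without the chemokines. Ngp was 0.0548-, 0.0209-, 0.00469- and 0.0496-fold, and Retnlg, a resistin-like secreted protein and a gene of the rule, 0.888-, 0.327-, 0.206- and 0.354-fold. In WT/PBS the cells without these chemokines held Camp at 6308 CPM against 322 in the cells with them, so granule-gene cells were mostly on that side. The 2 classes had median depths before thinning of 1885.0 and 3632.0 UMIs in WT/PBS and lay closer in the other libraries.

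**Figure D5:**
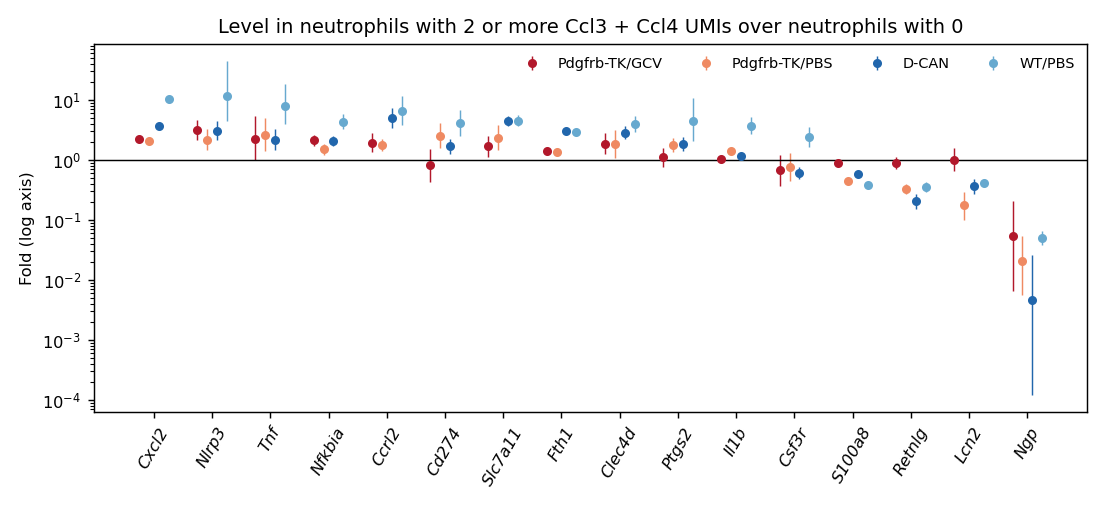
Fold of each gene's thinned UMIs per cell in neutrophils with 2 or more Ccl3 and Ccl4 UMIs over neutrophils with none (log axis), in each of the 4 libraries, with exact 95% intervals for counting error. Cxcl2, Nlrp3, Ccrl2 and Slc7a11 lie above 1 in all 4 libraries and Ngp lies below 1 in all 4.

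Neutrophils were a small part of the cells but held much of some signals of the library. They held 0.291%, 0.346%, 1.05% and 0.651% of all UMIs. Of all Il1b UMIs, they held 12.0%, 38.4%, 20.8% and 3.21%, and of all Cxcl2 UMIs 12.8%, 36.1%, 22.2% and 7.09%. WT/PBS was lowest and Pdgfrb-TK/PBS highest for both. C1q-high macrophages had Il1b at 478, 222, 1432 and 1610 CPM, so in WT/PBS they had more per UMI than neutrophils (647 CPM). Of Ccl3, neutrophils held 12.1%, 27.1%, 27.4% and 23.2%. Ligands of Cxcr2 differed: of Cxcl3 neutrophils held 14.3%, 28.5%, 15.2% and 1.37%, at 1050, 1039, 368 and 213 CPM. They held at most 2.54% of Cxcl1 and at most 0.319% of Cxcl5, which stood at 33.7, 21.5, 43.9 and 66.3 CPM in epithelial-marker cells. Csf3, the ligand of Csf3r, had 102, 42, 133 and 908 UMIs in a whole library. Its macrophage level was 26.1 CPM in WT/PBS and at most 1.30 in the other 3.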

How the data were processed

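Tumors of 4 conditions were profiled with 10x Chromium 3′ single-cell RNA-seq, 1 pooled library each. GEO's protocol text describes nuclei of another tissue, so libraries were matched to conditions by their titles, which name tumors. The deposited counts are UMIs per gene and cell that the authors made with Cell Ranger (7.0.0 per the file headers) and mm10. The submitters' processing notes also name STAR 2.6. Doublets were kept and no doublet caller was run, beyond what the rule removes. From the counts, UMIs were summed over neutrophils and scaled to CPM, and cells were thinned to 1000 UMIs for shares. Intervals are Clopper-Pearson for shares and exact conditional binomial for folds, at 95%. No test was possible with 1 library per condition. A floor of 3 counts was used. Genes are named as members of 21 state lists or 14 lists of other cells, as genes of the rule, as the 10 highest and 10 lowest ratios of each comparison (among genes with at least 100 CPM in the higher library, there at or above the level in its other cells, and leaving out mitochondrial, ribosomal protein and rule genes), as the 20 first by fold over other cells or as the 15 first by Fano factor; Clu, Bag3, Gclm and the ligands of receptors were added. The members and lists were chosen with earlier results of these data known. Scripts were tested on simulated data. Python 3.11.15, numpy 2.4.6, scipy 1.17.1, pandas 2.3.3 and matplotlib 3.10.9 were used. Some genes are not reported here.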

Additional observations from a re-analysis of the deposited data

Results flagged for a closer look

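The D-CAN and WT/PBS libraries list fluorescent reporter features that no comparison above uses. Neutrophils of D-CAN held 107 UMIs of GFPcds in 77 cells (605 in the library) and 90 of Tdtomato in 73 cells (676 in the library). Neutrophils of WT/PBS held 48 of GFPcds in 39 cells (2017 in the library) and 66 of Tdtomato in 45 cells (1826 in the library). These counts are above the limit that a count of 0 allows, and their source was not tested.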

How the results depend on the processing

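No paired analysis was possible because each condition is 1 pooled library. The neutrophil share fold with GCV (0.602) was 0.311 over cells with a Ptprc UMI and 0.447 against WT/PBS. With D-CAN (1.57) it was 0.883 over cells with a Ptprc UMI, below 1 but with an interval that spans it (0.739 to 1.06), 2.04 with 3 of 7 further genes asked for, 1.94 without granule-gene cells, 1.93 with the rule on thinned cells and 2.12 against Pdgfrb-TK/PBS. Between saline libraries (1.35) it was 1.08 without granule-gene cells. The rule on thinned cells, leaving out granule-gene cells and sums of thinned cells were chosen after seeing the data. Genes past 2-fold numbered 73 with GCV, and 579 at 20 UMIs, 36 at 200 UMIs, 35 without the deepest 5% of cells, 21 in thinned sums and 453 against WT/PBS. With D-CAN (680) they numbered 1990, 385 and 265 at 20 UMIs, at 200 UMIs and in thinned sums, and between saline libraries (410) 1785, 192 and 132.

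Some log2 ratios reversed. Without the deepest 5% of cells, Slpi was -0.23 and Cryab -1.43 with GCV. Against WT/PBS, the GCV ratios were 2.32 for Ptgs2, 1.08 for Ccl4, 1.49 for Ccrl2 and 1.76 for Mpp7. Against Pdgfrb-TK/PBS, the D-CAN ratios were 0.33 for Ngp, 0.41 for Lcn2, 2.62 for Elane, 1.68 for Prtn3, 0.58 for Hmox1, 0.36 for Ftl1, 0.57 for Gclm and 2.64 for Timp1, and -1.26 for Il1b, -1.74 for Ptgs2, -0.999 for Ccl4, -1.93 for Osm, -1.47 for Nlrp3, -1.22 for Il1a, -0.56 for Cd80, -2.49 for Mpp7 and -0.48 for Oasl2. The cause was not tested. Of the other log2 ratios under an alternative, 1288 kept direction and side of 2-fold, 34 dropped under it and 23 passed it. Of 192 shares of neutrophils with a UMI, recomputed without thinning or with 500 UMIs, 123 moved beyond their interval, so the shares hold for 1000 UMIs per cell. The floor of 3 counts was highest in Pdgfrb-TK/PBS by CPM (10.3) and in Pdgfrb-TK/GCV by share of thinned cells (2.50%).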
